A study of Homo sapiens with 4 samples.

Results

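The response of RD cells to SKP2 knockdown was described from 2 of the 4 libraries of the series, 1 from RD cells with a control shRNA (shSCR) and 1 from RD cells with an shRNA against SKP2 (shSKP2), chosen by their labels. Of the 39323 genes in the tables, 12931 were compared between these libraries. RD is an established human cell line of fusion-negative rhabdomyosarcoma, a childhood tumour of cells that have entered the muscle lineage, and fusion-negative means that no PAX3-FOXO1 or PAX7-FOXO1 fusion is present. The remaining 2 libraries came from JR1, another fusion-negative line with the same pair of shRNAs. All 4 libraries came from cells infected with lentivirus, so the controls carried a vector and a hairpin too, and only 1 hairpin against SKP2 (shSKP2.2) was sequenced. The cells were kept in growth medium with serum, and poly-A RNA was sequenced. The virus was packaged in HEK293T, a human embryonic kidney line.

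SKP2 is an F-box protein, the part of the SCF ubiquitin ligase (with SKP1, CUL1 and RBX1) that recognises which protein is to be degraded. It is best known for marking the CDK inhibitors p21, p27 and p57, encoded by CDKN1A, CDKN1B and CDKN1C, and so for helping cells into S phase. Its substrates are controlled as proteins, and RNA levels do not measure that step. Rhabdomyosarcoma cells express the myogenic factors MYOD and MYOG, yet build little of the sarcomere, the contractile unit of thick filaments (myosin), thin filaments (actin, troponin, tropomyosin), Z-discs and titin.

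Levels are in TPM, the authors' unit of transcript abundance per length, which has the same total in each library. For each gene the change is the ratio of TPM + 1 in RD shSKP2 to TPM + 1 in RD shSCR on the log2 scale. Each change was computed on TPM as deposited and again after 601 short structural RNA genes (RN7S, RNU, SNOR and SCARNA genes, RMRP and RPPH1) were removed and the rest rescaled. A gene was said to have risen or fallen when it passed 2-fold in the same direction on both scales. With 1 library per condition there was no replicate, so no difference in this text has an error or a p-value, and the 2-fold limit stands in place of a test. The number of reads behind each TPM was not known.

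SKP2 (chr5, 36152067 to 36184319 of GRCh38) was the check of the labels. Its level was 92.8 TPM in RD shSCR and 7.40 TPM in RD shSKP2, a 12.5-fold lower level and a change of -3.48 as deposited and -3.18 rescaled. The JR1 libraries held 46.5 TPM in shSCR and 2.72 TPM in shSKP2. SKP2 therefore fell in the library labelled as the knockdown of each line. The other SCF subunits were not called. SKP1, the adaptor that binds F-box proteins, was at 24.97 and 24.45 TPM in RD shSCR and RD shSKP2. CUL1, the scaffold, was at 22.1 and 20.2 TPM. CKS1B, the cofactor that SKP2 needs to bind p27, had the lowest change of the 19 SCF and neddylation genes compared, -0.91, with levels of 211 and 111 TPM.

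Markers of the line were checked first. Of 16 rhabdomyosarcoma markers compared, MYOD1 stood at 87.0 and 93.8 TPM, MYOG at 31.6 and 58.4 TPM, DES at 39.3 and 43.4 TPM, and IGF2 at 1294 and 1473 TPM in RD shSCR and RD shSKP2. As deposited, 10 of the 16 were higher and 6 lower in RD shSKP2. FGFR4 and PAX7 were the 2 that fell on both scales (12.5%, beside 3.48% of all genes). Muscle identity was thus visible in both RD libraries from genes such as MYOD1, MYOG and DES. MYF5 and H19 were listed at 0 in both. TFAP2B and CDH3, known as markers of fusion-positive tumours, were at 0.02 TPM or below. Of 18 markers of epithelial, endothelial and blood cells, 2 were high enough to be compared, the endothelial receptor gene TEK at 6.37 and 3.38 TPM and the epithelial claudin gene CLDN4 at 5.76 and 1.63 TPM. The others were at 0.38 TPM or below, and PTPRC, KDR and HBB were listed at 0 in both. TIE1, an endothelial receptor gene outside the list, was at 5.03 and 0.31 TPM.

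Most of the TPM in both RD libraries belonged to a few short structural RNAs. Their share of all TPM was 58.5% in the RD control and 68.9% after knockdown, beside 66.4% and 72.0% in JR1. RN7SL1 and RN7SL2 encode the RNA of the signal recognition particle, and RN7SK the RNA that holds the elongation factor P-TEFb. RN7SL1 had 196610 TPM in RD shSCR and 238375 TPM in RD shSKP2. RN7SL2 had 111037 and 150332 TPM. RN7SK had 170825 and 208604 TPM. All of these were higher in the knockdown library, but none by 2-fold. RPPH1, the RNA of RNase P, went the other way with 57109 and 46154 TPM, and RMRP, the RNA of RNase MRP, with 27628 and 21729 TPM. The share left for protein-coding genes was 40.2% in RD shSCR and 29.9% in RD shSKP2.

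**Figure D1:**
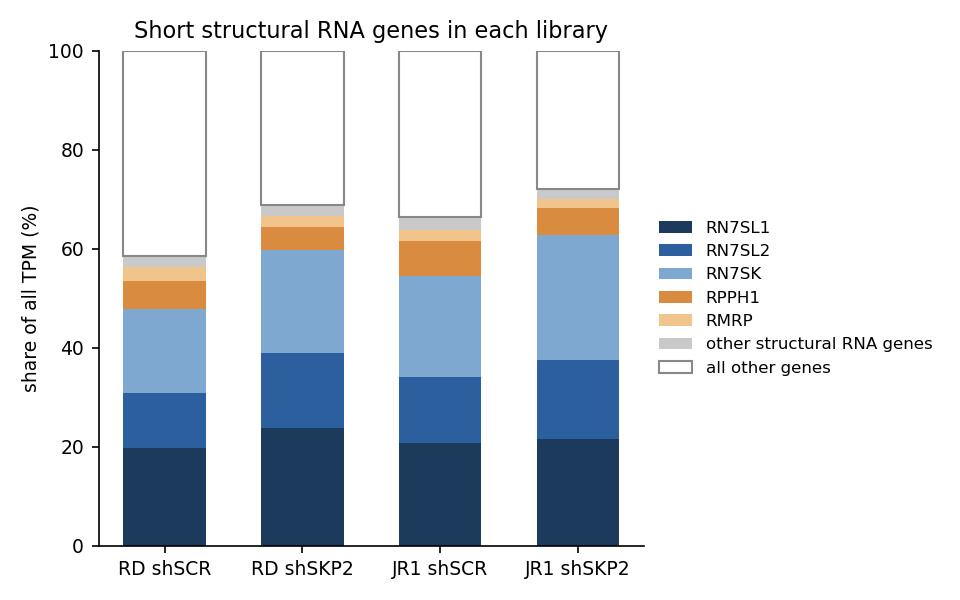
Share of all TPM (%) taken by short structural RNA genes in each library, with 1 stacked bar per library from 0 to 100. Their summed share was 58.5% in RD shSCR and 68.9% in RD shSKP2, mostly RN7SL1, RN7SL2 and RN7SK.

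TPM sum to a fixed total, so a larger share for these genes leaves less for all others. The 2 scales differed by 0.42 on the log2 scale, and the median change of the 12931 genes was -0.27 as deposited and 0.10 rescaled. On TPM as deposited, 117 genes rose by 2-fold (0.905% of those compared) and 962 fell (7.44%). On rescaled TPM, 455 rose (3.52%) and 460 fell (3.56%). Rises thus made up 10.8% of the calls as deposited and 49.7% rescaled. Rescaling raises every TPM left, so the added 1 also weighs less. Centring the changes of each scale on their median gave 252 rises and 447 falls past 2-fold on both centred scales. Genes past 2-fold on both scales numbered 117 that rose (0.905%) and 450 that fell (3.48%), with rises at 20.6% of the calls, and these are the genes described here. The middle 50% of changes lay between -0.56 and -0.01 as deposited and between -0.22 and 0.38 rescaled.

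**Figure D2:**
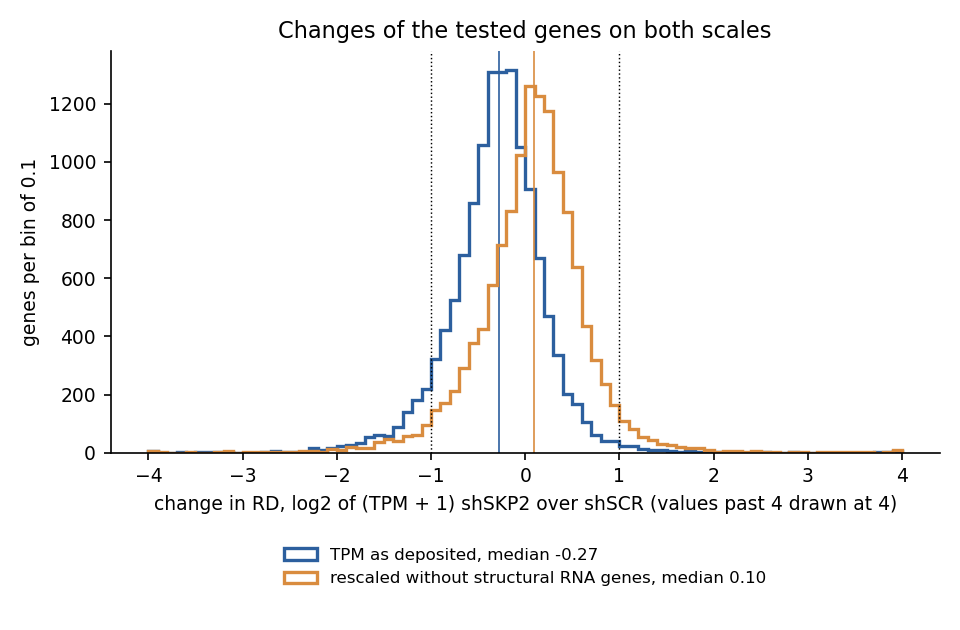
Changes of the tested genes in RD (log2, x axis) as a histogram in bins of 0.1, for TPM as deposited and for TPM rescaled without structural RNA genes. Solid lines mark the medians, -0.27 and 0.10, and dotted lines the 2-fold limits. The rescaled distribution lies to the right of the deposited one.

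The called genes differed in level and kind. The genes that rose had a median mean level of 3.47 TPM, beside 9.97 TPM for all genes compared and 9.69 TPM for those that fell. Of the 117 rises, 46 lay below 1 TPM in RD shSCR or RD shSKP2, where the added 1 understates the change. By RefSeq class, 90 of the rises and 415 of the falls were protein-coding, and 9 rises were ribosomal RNA genes. Falls were most frequent among the 542 genes of 100 TPM or more, at 8.67%. They made up 3.70% of genes from 1 to 5 TPM, 3.22% of the 5337 genes from 5 to 20 TPM and 2.75% from 20 to 100 TPM. Fallen histone genes such as H3C15 and H4C3 averaged above 100 TPM, and their part in the 8.67% was not counted. Just inside the limit for a rise lay PRRT4 (0.79 and 2.60 TPM) and CYP2E1 (0.35 and 1.72 TPM), and just outside it TNNC2 (2.53 and 6.05 TPM) and MARCHF3 (6.01 and 12.98 TPM). For falls the nearest inside were ARNTL2 (2.77 and 0.88 TPM) and CLIC4 (59.9 and 22.2 TPM), and the nearest outside HRH1 (2.82 and 0.90 TPM) and ELOVL6 (6.72 and 2.36 TPM). Genes on either side of the limit are therefore close neighbours.

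**Figure D3:**
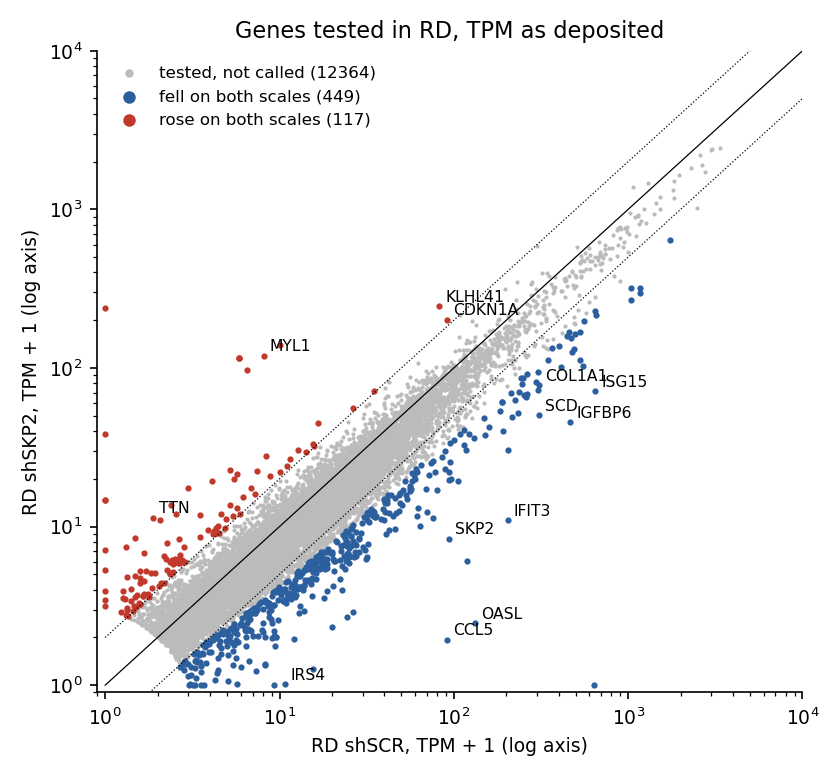
TPM + 1 of the tested genes in RD shSCR (x axis) and RD shSKP2 (y axis), both on log axes, 1 point per gene with 1 called gene left out of the plot. The solid line marks equal levels and the dotted lines 2-fold. Most points lie a little below the line of equal levels, as the median change of -0.27 gives, and MYL1 and SKP2 stand among the points farthest from it.

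Sarcomere genes stood among the largest rises of protein-coding genes. MYL1 (chr2, 210290150 to 210315174), an alkali light chain of fast skeletal myosin, stood at 7.10 TPM in RD shSCR and 119 TPM in RD shSKP2, 16.7-fold higher, with a change of 3.89 as deposited and 4.40 rescaled. TTN, which encodes the giant spring protein titin, had 0.88 and 10.4 TPM, a change of 2.60. MYOM1, the M-line crosslinker myomesin, had 0.32 and 6.43 TPM, a change of 2.49. MYL1 was abundant in the knockdown library, whereas TTN and MYOM1 were below 1 TPM in the control library and at moderate levels in the other. In bulk RNA, more cells of a kind and more RNA per cell cannot be told apart. MYLPF, the regulatory light chain of fast myosin, rose from 15.6 to 44.0 TPM, and MYH8, the perinatal myosin heavy chain, from 0.66 to 3.56 TPM. In all, 5 of 10 thick filament genes rose and none fell, beside 0.905% and 3.48% of all genes, with a median change of 1.12 as deposited and 1.63 rescaled. TTN, MYOM1 and MYH8 reached the minimum mean of 1 TPM only through the knockdown library, so they had to differ. The count of rises was 3 at a minimum mean of 5 TPM and 2, MYL1 and MYLPF, with at least 1 TPM in both RD libraries. The embryonic myosin heavy chain gene MYH3 stood at 1.97 and 1.71 TPM, and MYL6B, which had the lowest change of the list, at 96.9 and 52.4 TPM.

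Of 15 thin filament genes, 14 were higher on the rescaled scale, 7 of them by 2-fold, and 2 passed the limit on both scales. Of all genes, 59.6% were higher and 3.52% rose by 2-fold on the rescaled scale, and 0.905% rose on both scales. KLHL41, a kelch protein that stabilises nebulin, was the most abundant of the protein-coding genes that rose, with 81.1 TPM in RD shSCR and 243 TPM in RD shSKP2, a change of 1.57. TNNI1, slow skeletal troponin I, rose from 5.14 to 14.4 TPM. These were the 2 called, with a list median of 0.38 as deposited and 0.80 rescaled. ACTC1, the cardiac actin gene that is also used in immature muscle, had 300 and 584 TPM, a change of 0.96. NEB, which encodes nebulin, had 6.77 and 12.7 TPM, a change of 0.82. TNNC2, fast troponin C, had 2.53 and 6.05 TPM. These members came close to the limit without passing it on the deposited scale. The skeletal actin gene ACTA1 was at 0.59 and 0.64 TPM, too low to be compared.

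At the Z-disc and M-line, 5 of 21 genes rose and 1 fell, beside 0.905% and 3.48% of all genes. The list median was 0.45 as deposited and 0.92 rescaled. LDB3, a PDZ and LIM protein of the Z-disc, rose from 0.68 to 5.80 TPM. SYNPO2L, an actin-bundling Z-disc protein, rose from 4.48 to 18.96 TPM. MYPN, myopalladin, rose from 5.90 to 16.4 TPM. MYOZ2 (0.84 and 4.11 TPM) and XIRP2 (0.32 and 1.76 TPM) rose from levels under 1 TPM. LDB3, MYOZ2 and XIRP2 reached the minimum mean of 1 TPM only through the knockdown library, so they had to differ. OBSL1, the obscurin-like protein, fell from 45.6 to 11.2 TPM. Of the 8 sarcomere chaperone and small heat shock genes, 3 rose: SMYD1 and UNC45B, which assist the folding of myosin, from a level of 1.55 to 11 TPM and from 0.48 to 3.86 TPM, and HSPB3, a small heat shock protein of muscle, from 1.07 to 10.0 TPM. UNC45B, too, reached the minimum mean only through the knockdown library. The median of the 8 genes was 0.52 as deposited and 0.97 rescaled.

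Muscle ubiquitin ligases stood among the rises as well. FBXO32 (atrogin-1) rose from 1.18 to 5.51 TPM, TRIM63 (MuRF1) from 1.04 to 3.19 TPM and TRIM54 (MuRF3) from 0.41 to 3.06 TPM. These were 3 of the 10 FOXO and atrophy genes compared, beside 0.905% of all genes that rose, and each is a ligase known from muscle. TRIM54 reached the minimum mean of 1 TPM only through the knockdown library, so it had to differ. The list median was 0.34 as deposited and 0.78 rescaled. Other muscle lists held few calls on both scales. In excitation-contraction coupling, 1 of 15 rose (HRC, a calcium binder of the sarcoplasmic reticulum, from 3.22 to 8.44 TPM) and 1 fell (SARAF, a regulator of store-operated calcium entry, from 203 to 29.5 TPM). None of the 13 neuromuscular junction, 17 dystrophin complex or 15 energy metabolism genes was called. On rescaled TPM alone, 2, 4 and 1 of them rose by 2-fold, beside 3.52% of all genes. CKM, muscle creatine kinase, had the highest change of the energy genes, 0.96, with levels of 2.92 and 6.65 TPM. Of 14 fusion and adhesion genes, 1 fell, the laminin receptor ITGA7, from 12.96 to 4.31 TPM, and the fusion proteins MYMK (1.22 and 2.05 TPM) and MYMX (3.26 and 1.62 TPM) were not called. Rescaled, 2 of these 14 genes and 2 of the 15 excitation-contraction genes rose by 2-fold.

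Regulators of myogenesis did not share a direction. Of 34 compared, 1 rose (2.94%) and 3 fell (8.82%), beside 0.905% and 3.48% of all genes. The list median was -0.16 as deposited and 0.24 rescaled. MYOD1 had a change of 0.11 as deposited and 0.53 rescaled. MYOG had a change of 0.87 as deposited and passed 2-fold on the rescaled scale alone. HDAC9, a class IIa deacetylase that represses MEF2, rose from 0.58 to 4.24 TPM. It reached the minimum mean of 1 TPM only through the knockdown library, so it had to differ. Those that fell were MDFI, an inhibitor of the myogenic factors (31.3 to 6.75 TPM), PITX3 (25.5 to 7.09 TPM) and PAX7, the factor of muscle stem cells (10.8 to 3.36 TPM). FGFR4, a growth factor receptor that is typical of rhabdomyosarcoma, fell from 49.3 to 12.6 TPM. MEF2C, a partner of MYOD, was at 0.98 and 2.05 TPM.

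Of the CDK inhibitors, 1 of 7 was called, a rise (14.3%, beside 0.905% of all genes). CDKN1A, which encodes p21, had 90.3 TPM in RD shSCR and 201 TPM in RD shSKP2, a change of 1.15 as deposited and 1.57 rescaled. CDKN1B, which encodes p27, had 15.6 and 11.1 TPM, a change of -0.46 and -0.07. CDKN1C, which encodes p57, had 4.32 and 2.86 TPM, a change of -0.46 and -0.16. CDKN1A was the only inhibitor of the list with a higher RNA level by 2-fold. CDKN2C had the lowest change, with levels of 49.1 and 23.7 TPM, and passed 2-fold downward as deposited but not rescaled. Of 24 other p53 target genes, 1 rose (4.17%) and 2 fell (8.33%), beside 0.905% and 3.48% of all genes. SESN2 rose from 9.04 to 21.04 TPM, while CCNG1 fell from 26.2 to 5.94 TPM and XPC from 11.5 to 3.87 TPM. PMAIP1 (NOXA), a BH3-only protein, fell from 92.7 to 20.9 TPM.

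Most genes of DNA replication and mitosis were lower on both scales, with few calls. Of 23 regulators of G1 and S phase, 3 fell: CCND1 (cyclin D1) from 55.2 to 16.6 TPM, CDK2 from 39.1 to 12.99 TPM and the pocket protein gene RBL2 from 12.1 to 3.88 TPM. Of 52 DNA replication genes, 47 were lower on the rescaled scale, where 59.6% of all genes were higher, and 5 fell, with a median of -0.81 as deposited and -0.41 rescaled. GINS1, a subunit of the replicative helicase, fell from 19.4 to 3.23 TPM. POLD1, the catalytic subunit of polymerase delta, fell from 41.4 to 11.2 TPM. MCM10 and CDC45 fell as well, each by 1.40 on the log2 scale. Of 58 genes of mitosis and the spindle, 51 were lower on the rescaled scale, with a median of -0.81 and -0.42, but only KIF14 (12.8 to 4.32 TPM) and HMMR (6.41 to 2.04 TPM) fell, a share of 3.45% beside 3.48% of all genes. On TPM as deposited alone, 11 of the mitosis genes and 16 of the replication genes passed 2-fold downward, beside 7.44% of all genes. MKI67 was at 50.9 and 32.9 TPM. FANCD2 (14.5 to 4.16 TPM) and CHEK2 (18.8 to 5.82 TPM) were the 2 falls among 32 homologous recombination and Fanconi genes.

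Histone genes had the most falls of any list. Of 56 compared, 39 fell (69.6%, beside 3.48% of all genes). All 56 were lower on the rescaled scale, where 59.6% of all genes were higher. The median was -1.60 as deposited and -1.19 rescaled. Most belong to the replication-dependent class, whose mRNA ends in a stem-loop in place of a poly-A tail, so poly-A selected libraries hold only a part of it. The summed level of the list was 24389 TPM in RD shSCR and 8226 TPM in RD shSKP2. H4C4 fell most, from 549 to 102 TPM. H2BC13 fell from 190 to 39.2 TPM and H3C10 from 528 to 112 TPM. H2BC21, which had the highest change of the list, had 134 and 78.9 TPM and was not called. Many histone genes are near-identical copies, and the split of reads between them is uncertain.

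The share of falls was highest on chr6, where most of these genes lie. On chr6, 56 of 660 genes fell (8.48%), against 1.47% to 4.39% on the other chromosomes counted. Runs of at least 3 adjacent compared genes that all fell included 7 histone genes from H2AC16 to H2BC17 (chr6, 27865317 to 27893891), 5 from H2BC13 to H2BC14 (chr6, 27807479 to 27815489), 5 from H3C1 to H2AC4 (chr6, 26020451 to 26033618) and 5 from H2AC8 to H2BC9 (chr6, 26216921 to 26252075). Shorter runs were H2BC6, H4C4 and H3C4 on chr6 and H2BC18, H3C13 and H4C14 on chr1. Other runs were IFIT2, IFIT3, LOC101926887 and IFIT1 (chr10, 89302046 to 89406487) and AGER, PBX2 and GPSM3 on chr6. The only run of rises was that of ribosomal RNA copies on chr21.

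Interferon-stimulated genes stood among the deepest falls. OASL, an oligoadenylate synthetase-like protein that enhances RNA sensing, had 132 TPM in RD shSCR and 1.46 TPM in RD shSKP2, 90.1-fold lower, with a change of -5.75 as deposited and -5.80 rescaled. IFIT3 had 203 and 10.0 TPM, and IFIT2 had 118 and 5.07 TPM. ISG15, a ubiquitin-like modifier, had 647 and 70.2 TPM. Each of these exceeded 100 TPM in the control library. RSAD2 (viperin) fell from 14.5 to 0.27 TPM, OAS2 from 23.5 to 1.71 TPM, and BST2 (tetherin) from 6.30 to 0.23 TPM. Of 49 effectors compared, 20 fell (40.8%) and 1 rose (2.04%), beside 3.48% and 0.905% of all genes. With at least 1 TPM in both RD libraries, chosen after seeing the data, 17 fell. The list median was -1.21 as deposited and -0.90 rescaled. The rise was GBP2, a guanylate-binding protein, from 1.82 to 6.39 TPM.

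Other parts of this response had fewer calls, to be read beside the 3.48% of all genes that fell. Of 18 nucleic acid sensors, 5 fell: DDX58 (RIG-I) from 14.96 to 4.21 TPM, IFIH1 (MDA5) from 11.1 to 3.07 TPM, DHX58 from 11.1 to 3.01 TPM, SAMHD1 from 16.1 to 5.09 TPM and ZC3HAV1 (ZAP) from 105 to 18.4 TPM. Of 22 genes of interferon signalling, STAT2 alone fell, from 39.6 to 13.9 TPM, while IRF9 was at 14.3 and 6.99 TPM. None of 17 MHC class I genes or 20 NF-kB genes was called. TAP1, the highest of its list by change, was at 14.12 and 13.97 TPM. Of 21 cytokine and chemokine genes, 7 fell. CCL5, a T cell attractant, had 90.5 TPM in RD shSCR and 0.94 TPM in RD shSKP2, 96.2-fold lower. CCL2 had 7.23 and 0.34 TPM, and IL6 had 7.28 and 0.36 TPM. CCL5, CCL2 and IL6 reached the minimum mean of 1 TPM only through the control library, so they had to differ. CXCL1, IL32, LIF and the receptor gene IL6ST also fell.

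Sequences before the start of some of these genes are shown because they hold letters known as binding words of interferon factors. RefSeq windows of 300 bases (250 before to 50 after the start, GRCh38.p14) were matched by symbol for 10094 of the 12931 genes (78.1%). The core word of the interferon-stimulated response element, GAAANNGAA on either strand, stood in 12 of the 15 fallen effectors that had a window, beside 12.9% of 325 genes that fell and 6.36% of all. The 42 genes behind the 12.9% include these 12 and 13 fallen histone genes. Effectors that did not fall were not counted. Each stretch shown has 60 bases, 5′ to 3′ on the strand of the gene, and capitals mark every match of this word or its reverse complement.
IFIT1 (chr10:89392496-89392555, plus strand): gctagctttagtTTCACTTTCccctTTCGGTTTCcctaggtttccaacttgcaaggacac
RSAD2 (chr2:6865781-6865840, plus strand): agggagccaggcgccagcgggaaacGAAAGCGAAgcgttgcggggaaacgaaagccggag
ISG15 (chr1:1013371-1013430, plus strand): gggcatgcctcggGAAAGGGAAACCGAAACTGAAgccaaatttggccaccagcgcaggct
BST2 (chr19:17405720-17405779, minus strand): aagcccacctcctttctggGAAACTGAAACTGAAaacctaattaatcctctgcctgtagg

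The match nearest the start ended 93 bases before it in ISG15, 94 in IFIT1, 71 in RSAD2 and 116 in BST2. In ISG15 and BST2 matches of the word overlap one another, so the capitals run on. A match is a description of the letters and shows no binding. Windows of OASL, IFIT2, CCL5, OAS2 and CCL2 were not analysed here.

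For the genes that rose, the E-box CAGCTG, a word bound by MYOD and MYOG, stood in 31.8% of 85 windows, beside 18.2% of the 325 windows of genes that fell and 17.04% of all. The related E-box CAGGTG (either strand) stood in 22.4%, 13.5% and 17.04%. Among 12 sarcomere and chaperone genes that rose and had a window, 2 held CAGCTG, so its share there was 16.7%. The MEF2 word CTAAAAATA (either strand) stood in 1 of the 85 windows. The stretches of 4 genes described in this text show CAGCTG in capitals.
WIPF3 (chr7:29806302-29806361, plus strand): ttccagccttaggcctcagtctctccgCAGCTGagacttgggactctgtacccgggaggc
KLHL41 (chr2:169509547-169509606, plus strand): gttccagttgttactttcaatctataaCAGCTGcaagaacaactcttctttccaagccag
MYOZ2 (chr4:119135772-119135831, plus strand): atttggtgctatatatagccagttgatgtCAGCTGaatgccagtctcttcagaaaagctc
CDKN1A (chr6:36678539-36678598, plus strand): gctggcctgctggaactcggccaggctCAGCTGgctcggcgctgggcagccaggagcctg

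Windows of the histone genes that fell held the E2F word TTTNGCGC (either strand) in 11 of 34 cases (32.4%), beside 4.92% of genes that fell and 3.20% of all, and GAAANNGAA in 13 of 34. The 16 genes behind the 4.92% include these 11. The median GC content of the histone windows was 42.2%, against 65.3% for all windows, and the part of base composition in these shares was not tested. The stretches of H2BC14 and H2BC17 are shown with the E2F word, here in its reverse complement, in capitals, because they lie in the longest runs of fallen genes and share much of their letters.
H2BC14 (chr6:27814794-27814853, plus strand): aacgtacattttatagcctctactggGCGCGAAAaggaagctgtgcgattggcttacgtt
H2BC17 (chr6:27893202-27893261, plus strand): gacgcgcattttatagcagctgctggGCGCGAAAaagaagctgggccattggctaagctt

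Most genes of lipid synthesis were lower on both scales. Of 30 cholesterol and fatty acid synthesis genes, 29 were lower on the rescaled scale, where 59.6% of all genes were higher. Of the 30, 10 fell (33.3%, beside 3.48% of all genes), with a median of -1.15 as deposited and -0.78 rescaled. SCD, the desaturase that makes oleate, fell from 307 to 49.5 TPM. ACAT2, which joins acetyl-CoA at the start of the sterol pathway, fell from 116 to 29.2 TPM. FDPS, farnesyl diphosphate synthase, fell from 148 to 47.5 TPM. MVD (40.5 to 12.98 TPM), CYP51A1 (99.0 to 34.2 TPM) and HSD17B7 (15.1 to 3.67 TPM), further steps of sterol synthesis, fell, as did the transfer protein gene STARD4 and the desaturases FADS1 and FADS2. SREBF1, a transcription factor of lipid synthesis genes, was at 19.4 and 7.38 TPM. It passed 2-fold as deposited, with a change of -1.28, but not after rescaling.

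Matrix and secreted genes had calls in both directions, where 3.48% of all genes fell and 0.905% rose. Of 23 collagen genes, 5 fell. COL1A1 fell from 307 to 77.0 TPM and COL6A2 from 68.5 to 16.2 TPM. COL3A1, the most abundant, had 1069 and 1383 TPM, a change of 0.37, so the fibrillar collagens did not move as one. MMP2 fell from 4.42 to 0.64 TPM and TIMP3 from 2.49 to 0.40 TPM. Both reached the minimum mean of 1 TPM only through the control library, so they had to differ. MMP15 (1.24 to 5.24 TPM) and ADAMTS5 (10.5 to 25.5 TPM) rose. IGFBP6, a binder of IGF2, had 463 TPM in RD shSCR and 44.7 TPM in RD shSKP2, 10.3-fold lower, and IGFBP5 fell from 26.1 to 6.76 TPM. IGF2 itself was not called.

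Signalling lists held few calls, to be read beside the 3.48% of all genes that fell and the 0.905% that rose. In the RAS-MAPK output list, 3 of 29 fell, all of them AP-1 genes: FOS from 93.5 to 24.4 TPM, FOSB from 30.5 to 5.27 TPM and JUNB from 84.3 to 26.4 TPM. In the Notch list of 22, the target genes HES1 (8.30 to 1.21 TPM), HES4 (41.0 to 14.8 TPM) and HEYL (13 to 3.61 TPM) fell, while the ligand gene JAG2 rose from 14.5 to 32.0 TPM. In the Wnt list of 27, the receptor gene FZD4 fell from 25.4 to 1.91 TPM and DKK3 from 23.2 to 5.38 TPM. In the TGF-beta list of 28, LTBP2 (8.04 to 0.99 TPM) and TGFBI (41.6 to 8.53 TPM) fell. LTBP2 reached the minimum mean of 1 TPM only through the control library, so it had to differ. None of 8 Hedgehog genes was called. KLF4, a zinc finger factor of stem cells, fell from 75.3 to 10.3 TPM. Of 30 Polycomb genes, BMI1 (8.99 to 3.18 TPM) and PHC1 (19.99 to 7.08 TPM) fell, and KDM6B, which removes the Polycomb mark, rose from 13.2 to 28.4 TPM.

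Housekeeping lists stayed near the median of all genes. None of 79 cytosolic ribosomal protein genes, 76 mitochondrial ribosomal protein genes, 32 proteasome genes, 41 splicing factors, 29 glycolysis and hypoxia genes or 16 heat shock genes was called on both scales. The ribosomal protein median was -0.34 as deposited and 0.08 rescaled, and that of 76 nuclear oxidative phosphorylation genes, of which ATP5MC1 alone fell (43.8 to 10.7 TPM), was -0.21 and 0.20. In the unfolded protein and integrated stress list, 3 of 31 rose, beside 0.905% of all genes. They were DDIT4, an inhibitor of mTORC1, from 25.3 to 55.0 TPM, ASNS, asparagine synthetase, from 14.8 to 31.3 TPM, and SESN2. Of 24 snoRNA host genes, SNHG9 fell from 8.52 to 1.01 TPM. Of 19 long noncoding RNAs, MEG3 fell from 39.0 to 13.8 TPM.

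The largest rises and falls also held genes outside these lists. Among the 20 largest rises were WIPF3, a WIP family actin regulator (0.48 to 7.48 TPM), PRR32 (1.98 to 16.5 TPM), C1orf105 (3.08 to 18.4 TPM) and 10 ribosomal or other short RNA genes. CXorf49B had 13.6 TPM and LOC103021295 had 6.08 TPM in RD shSKP2, and both were listed at 0 in RD shSCR. WIPF3, CXorf49B and LOC103021295 reached the minimum mean of 1 TPM only through the knockdown library, so they had to differ. Among the 20 largest falls were PLAAT4 (19.1 to 1.32 TPM), a tumour suppressor induced by retinoids and interferon, and PLCG2, phospholipase C gamma, from 11.1 to 0.96 TPM. PLCG2 reached the minimum mean only through the control library, so it had to differ.

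Copies of ribosomal RNA and U1 RNA stood at the top of both directions and need care. RNA18SN2, RNA18SN3 and RNA18SN4 each had 4.87 TPM in RD shSCR and 115 TPM in RD shSKP2, equal values that come from reads shared between identical copies. RNA28SN4 had 9.11 and 138 TPM, and RNA28SN1 had 5.50 and 96.6 TPM. RNA5-8SN4 was listed at 0 in RD shSCR and had 238 TPM in RD shSKP2. Summed over RefSeq ribosomal RNA genes, the level was 34.1 TPM in RD shSCR and 842 TPM in RD shSKP2, beside 44.3 and 17.7 TPM in JR1. Ribosomal RNA was therefore high in 1 library of the 4. Without ribosomal and other short RNA genes, an alternative chosen after seeing the data, 106 rises and 446 falls were called, with 5 thick filament rises and with 39 histone, 20 interferon-stimulated and 10 cholesterol and fatty acid synthesis falls. The variant U1 gene RNVU1-7 had 632 TPM in RD shSCR and was listed at 0 in the other 3 libraries, while RNVU1-8 was listed at 0 in RD shSCR and had 37.4 TPM in RD shSKP2. These are near-identical copies, so their values are uncertain.

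Some falls in RD had no counterpart level in JR1. IRS4, an insulin receptor substrate, had 9.71 TPM in RD shSCR and 0.01 TPM in RD shSKP2, and 0.11 and 0.02 TPM in JR1. CA2, a carbonic anhydrase, had 8.29 TPM in RD shSCR and was listed at 0 in RD shSKP2. DMKN, a secreted dermokine, had 4.74 and 0.02 TPM. These 3 genes were well above 1 TPM in RD shSCR and at or below 0.38 TPM in the other 3 libraries. In the list of 16 HEK293T markers, 11 were compared and 4 fell in RD (36.4%, beside 3.48% of all genes). GAL fell from 5.72 to 0.42 TPM, CXXC4 from 3.40 to 0.19 TPM, and BEX1 and PCSK1N from 2.26 and 2.17 TPM to a listed 0. These 4 markers, like IRS4, CA2 and DMKN, reached the minimum mean of 1 TPM only through the control library, so they had to differ. Of the 11 markers, 4 were higher in RD shSKP2 as deposited and 6 rescaled. The summed level of the list was 356 TPM in RD shSCR and 373 TPM in RD shSKP2, mostly from PRAME, NEFL and NEFM, which RD expresses in both libraries. PAX8 was listed at 0 in both, and LHX1 was at 0.08 and 0.03 TPM. The part of RNA carried over from the packaging line in these falls, those of IRS4, CA2 and DMKN included, was not tested.

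JR1 was set beside RD to see where the lines differ. In JR1, 229 of 12670 genes rose (1.81%) and 870 fell (6.87%) on both scales, with a median change of -0.22 as deposited and 0.01 rescaled. Of the 117 genes that rose in RD, 60 also rose in JR1, which is 51.3% of the RD rises and 26.2% of the JR1 rises. Of the 450 that fell in RD, 314 also fell in JR1, 69.8% of the RD falls and 36.1% of the JR1 falls. These shares count as not shared 12 of the RD rises and 50 of the RD falls that were too low in JR1 to be compared. The pairs of libraries share no sample, but each has 1 library a side, so no difference between lines was tested. Shared rises included MYL1 (34.4 and 374 TPM in JR1), TTN (2.59 and 17.1 TPM), MYOM1 (1.21 and 21.9 TPM) and KLHL41 (106 and 448 TPM). Shared falls included OASL (84.0 and 1.41 TPM), CCL5 (130 and 1.66 TPM), ISG15 (606 and 82.8 TPM) and IGFBP6 (175 and 10.5 TPM).

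**Figure D4:**
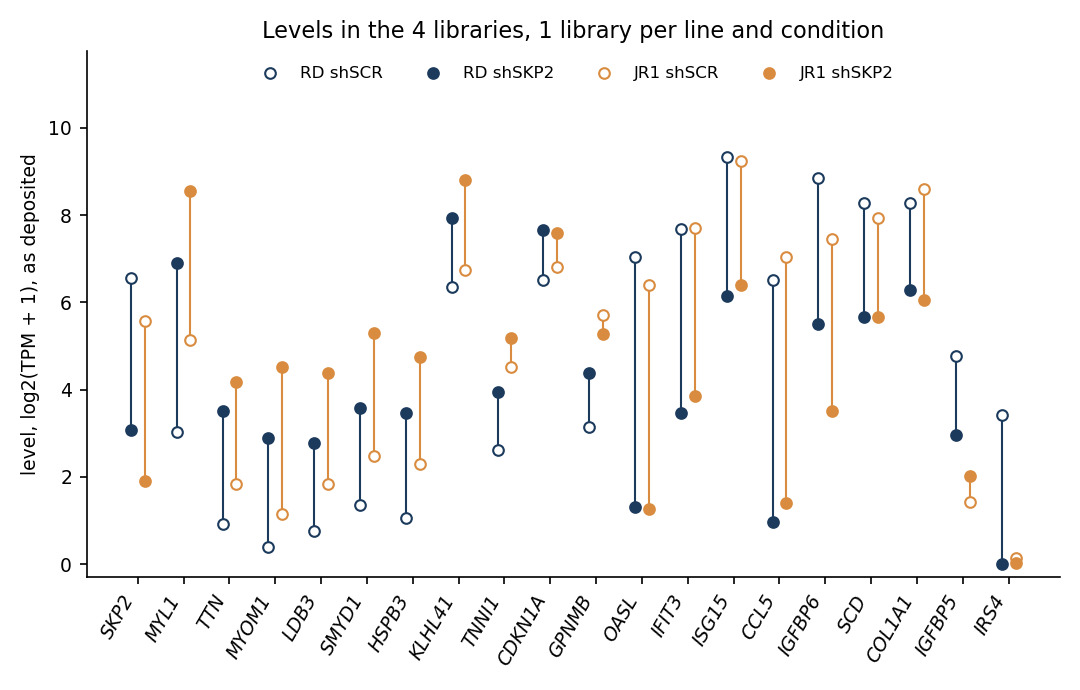
Levels of 20 genes as log2(TPM + 1) (y axis) in the 4 libraries, open circles for shSCR and filled circles for shSKP2, RD in blue and JR1 in orange, with 1 library each. SKP2, the interferon genes and IGFBP6 are lower in the shSKP2 library of both lines and MYL1 higher, while IGFBP5 (26.1 to 6.76 TPM in RD) and IRS4 (9.71 to 0.01 TPM in RD) were low in both JR1 libraries.

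Several calls were made in RD and not in JR1, and their values are given side by side with no test. TNNI1 had a change of 1.33 in RD and 0.66 in JR1. CDKN1A had 1.15 in RD and 0.78 in JR1, where its levels were 111 and 191 TPM. GPNMB, a lysosomal glycoprotein, rose in RD from 7.80 to 19.96 TPM and had 51.0 and 37.5 TPM in JR1. IGFBP5 fell in RD and had 1.70 and 3.03 TPM in JR1. COL8A1 fell from 11.98 to 1.86 TPM in RD and was at 0.26 and 0.05 TPM in JR1, too low to be compared. In the other direction, the change of CKM was 0.96 in RD but 2.65 in JR1, and that of MEF2C was 0.62 in RD but 2.84 in JR1.

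List medians and counts of the lines were set side by side. The histone median on the deposited scale was -1.60 in RD and -1.53 in JR1, with 39 falls in each. The interferon-stimulated median was -1.21 in RD and -1.56 in JR1, with 20 and 37 falls. The thick filament median was 1.12 in RD and 1.65 in JR1, with 5 and 7 rises. The number of fallen effectors was thus lower in RD, but the limit was passed by more genes of any kind in JR1, and these differences were not tested. The mitosis list had 2 falls in RD and 15 in JR1, at medians of -0.81 and -0.90. The MHC class I list had none in RD and 5 in JR1, at medians of -0.53 and -1.05.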

How the data were processed

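Per the labels and the study's methods, poly-A RNA was made into directional libraries and read as pairs of 150 bases. The authors used STAR 2.7.9a with GRCh38 and RSEM 1.3.2, and deposited TPM with 2 decimals. Each library has the same total, and neither counts nor depth can be recovered from TPM. Changes were log2 ratios of TPM + 1, shSKP2 over shSCR, taken as deposited and again after removal of 601 short structural RNA genes by symbol and rescaling. Genes averaging 1 TPM or more over both RD libraries were compared, and calls needed 2-fold on both scales. There is 1 library per line and condition, so no test was run.

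Members, lists and words were chosen with earlier results of these data known. Named genes were SKP2, the 20 largest rises and 20 largest falls by the smaller change, the called, highest and lowest members of each list, fixed cell cycle and muscle genes, and opposite calls in JR1. Further list members and the genes of the E-box stretches were chosen after their values were seen. The 13 mitochondrially encoded genes and 4 other list symbols had no match and were not used here, and some called genes are not reported here. Alternatives of scale, pseudocount, minimum and limit were run. The scripts were tested on simulated data. Python 3.11.15, numpy 2.4.6, pandas 2.3.3 and matplotlib 3.10.9 were used.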

Additional observations from a re-analysis of the deposited data

Results flagged for a closer look

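Genes called in opposite directions in RD and JR1 were PGA4, PGA5, RNA28SN1 and RNA5-8SN4, and no gene fell in RD and rose in JR1. With 1 library a side in each line, these differences were not tested. PGA4, a pepsinogen gene, had 2.52 and 10.9 TPM in RD shSCR and RD shSKP2 and 27.1 and 10.3 TPM in JR1, and its change was 3.07 higher in RD on the log2 scale. PGA5, a near-identical neighbour, had 1.27 and 6.91 TPM in RD and 19.5 and 7.92 TPM in JR1, a difference in change of 2.999. Reads of these copies can be split between them, so they may count as 1 observation. RNA28SN1 had 5.50 and 96.6 TPM in RD and 7.46 and 2.7 TPM in JR1, a difference of 5.10. RNA5-8SN4 was listed at 0 in RD shSCR and had 238 TPM in RD shSKP2, while in JR1 it had 8.51 TPM in shSCR and was listed at 0 in shSKP2, so no difference in change is given. Both are ribosomal RNA copies whose values cannot be told apart from those of other copies.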

How the results depend on the processing

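Of 89 values of the main results under 7 planned and 3 added alternatives, 71 stayed within 1.5-fold. On TPM as deposited alone, 962 genes fell, with 20 cholesterol, 16 DNA replication and 11 mitosis genes. On rescaled TPM alone, 455 genes rose. With changes centred on the median of all genes, 252 rose, and 8 DNA replication genes fell. A pseudocount of 0.1 TPM gave 232 rises. A minimum mean of 5 TPM gave 53 rises, with 3 thick filament rises and 1 mitosis fall. A 1.5-fold limit gave 385 rises and 1336 falls, with 20 cholesterol, 21 DNA replication and 16 mitosis falls. With at least 1 TPM in both RD libraries, chosen after seeing the data, 71 rose and 2 thick filament genes did. All 117 rises and 395 of the 450 falls were also called after centring. Without ribosomal and other short RNA genes, chosen after seeing the data, 106 of the rises and 446 of the falls remained called. Among protein-coding genes alone, also chosen after seeing the data, 90 rose and 410 fell. SKP2 was counted with the main results. For the rest of the 48 named genes, 329 of 369 values moved by less than 1.5-fold, 40 by more and none changed direction. The settings with another or no minimum TPM only choose genes, so their values could not move. TPM as deposited alone returns the same value wherever the deposited change was the smaller. No paired analysis was possible because RD has 1 library of each condition, and a fit over RD and JR1 with the line as a block, which would describe both lines together, was not run. Depth is unknown, so the counting error of low TPM cannot be given, and rises from below 1 TPM depend most on the pseudocount and minimum.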

Other observations

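The genes of the next sentences were chosen after their values were seen. STRA6, the cell surface receptor for retinol bound to its carrier, was 8.76 TPM in shSCR and 1.59 TPM in shSKP2 of RD, and 2.76 and 0.63 TPM in JR1. DHRS3, which reduces retinaldehyde to retinol, was 47.53 and 11.58 TPM in RD and below 1 TPM in both JR1 libraries. CRABP2, which carries retinoic acid in the cell, was 277.36 and 336.91 TPM in RD and did not pass the 2-fold limit. Of the angiopoietin system, ANGPT2, a secreted ligand, was 22.60 TPM in shSCR and 4.42 TPM in shSKP2 of RD. The receptor TIE1 was 5.03 and 0.31 TPM, and its partner receptor TEK was 6.37 and 3.38 TPM, a difference under 2-fold on both scales. With 1 library a side, none of these differences has a replicate check.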
